A study of Mus musculus with 16 samples.

Results

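28 genes of cholesterol synthesis and of its control by the sterol regulatory element binding proteins (SREBPs) were followed in sorted epithelium of the mouse intestine. They were chosen by name, with earlier results of these data known. All 28 were found among the 46878 genes with a unique symbol. All 28 also passed the filter on low counts, which left 16001 genes for testing. 18 of them encode enzymes on the way from acetyl-CoA to cholesterol, 5 encode SREBPs and the proteins that hold or escort them, 1 encodes the sterol carrier Stard4 and 4 encode enzymes of fatty acid synthesis.

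The cells came from RedMUC298trTg mice aged 6 to 8 weeks, which carry a MUC2 reporter tagged with the red fluorescent protein mCherry, so that cells making the goblet mucin fluoresce. mCherry-positive cells (goblet cells) and mCherry-negative epithelial cells (other cells) were sorted from the distal colon (DC) and from the 8th section of the small intestine (Si8), with 4 libraries in each of the 4 groups. The labels call the other cells colonocytes in DC and enterocytes in Si8, and both sorts in both regions carry the reporter. No treatment is named, and the labels do not say which libraries came from separate animals, so the p-values measure only the spread between these libraries, which may be technical. Libraries are numbered 1 to 4 within a group in the order of deposit, and a number does not tie libraries of different groups together. Goblet RNA was purified on MinElute columns and RNA of the other cells on Mini columns, so that column and cell type cannot be told apart.

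Depth ran from 11915081 to 18530171 counts in the DC libraries and from 30839377 to 41075589 in those of Si8. Mitochondrially encoded genes had 0 counts in every DC library and took 3.19% to 8.36% of the counts in Si8, so the count tables were not made alike for these genes, and a difference between regions cannot be told apart from a difference between tables. The sort was checked on 8 goblet markers including Muc2 and Fcgbp, and all 8 passed the test as higher in the goblet sort of each region. Their summed level, in CPM (counts scaled to a common library size, with totals adjusted by the trimmed mean of M values, TMM), was 446 to 588 in DC other cells against 38562 to 43630 in DC goblet cells, and 311 to 790 against 125831 to 286860 in Si8. Muc2 and Fcgbp alone took 9.20% to 17.8% of the counts in Si8 goblet libraries and 2.78% to 2.97% in DC goblet libraries. The 5 Paneth cell markers were also all higher in Si8 goblet cells, at 11771 to 31343 CPM in sum against 640 to 1709 in Si8 other cells. In DC 4 of the 5 were higher in goblet cells, but at low levels. Their sum there was 15.9 to 20.2 CPM against 0.19 to 0.89 in DC other cells, with Defa24 at 0 in both. The 6 colonocyte markers were all lower in DC goblet cells, at 193 to 286 CPM in sum against 6683 to 7448 in DC other cells (median log2 fold change -5.29), and 5 of 6 were lower in Si8 goblet cells (958 to 1827 against 2790 to 4219 CPM). All 5 enteroendocrine markers were lower in goblet cells of both regions, at 48.8 to 70.9 against 354 to 459 CPM in DC and 53.2 to 99.6 against 206 to 298 CPM in Si8. Of 4 tuft cell markers, 1 was lower in DC goblet cells (27.4 to 35.7 against 28.2 to 56.2 CPM) and 2 in Si8 goblet cells (44.6 to 75.1 against 64.9 to 95.9 CPM). All 6 lymphocyte markers were lower in Si8 goblet cells, with a sum of 10.8 to 18.8 CPM against 197 to 313 in Si8 other cells, and the 6 markers of ileal enterocytes, all lower as well, summed to 918 to 1488 CPM in Si8 goblet cells against 7539 to 14012 in Si8 other cells. All 6 proliferation markers were higher in Si8 goblet cells (981 to 1328 against 633 to 950 CPM in sum), and 1 of 6 was higher in DC goblet cells (724 to 1002 against 612 to 913 CPM). The part of these marker levels in the results below was not tested. In bulk libraries, fewer cells of a type and less RNA per cell cannot be told apart.

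Cells make cholesterol from acetyl-CoA through mevalonate, isoprenoid diphosphates, squalene and lanosterol, and SREBP-2, the product of Srebf2, is the main activator of the genes for these enzymes. SREBPs are made as membrane proteins of the endoplasmic reticulum. When sterols are scarce, Scap escorts them to the Golgi, where proteases release the active factor, and when sterols are plentiful, Insig proteins hold Scap back. SREBP-1c, from Srebf1, mainly drives fatty acid synthesis. In the intestine, absorptive cells of the small bowel take up dietary and biliary cholesterol as well as making their own.

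SREBPs bind sterol response elements, usually with NF-Y, which binds CCAAT boxes, and they can also bind the E-box CACGTG, so the promoters were searched for these letters. RefSeq promoter windows (mouse build GRCm38.p6) were on hand for 23 of the 28 genes, and Fdps, Fdft1, Sqle, Stard4 and Scd2 had no entry. The 250 bases upstream of each start were searched on both strands, and a gene was counted once however many matches it held, overlapping ones included. CCAAT stood in 19 of 23 genes (82.6%), against 37.5% of 27025 genes with a window and 40.2% of the 10713 of them that were tested here, and it was not found in the windows of Acat2, Scap, Acaca and Elovl6. CACGTG stood in 5 of 23 (21.7%), Hsd17b7, Sc5d, Dhcr7, Scap and Insig1, against 6.86% of all genes with a window and 9.48% of those tested. The strict core TCACNCCAC stood in 1 of 23, Hmgcs1, against 1.22% of all genes with a window and 1.27% of those tested. These are matches of letters, not measured binding. 4 windows are shown 5′ to 3′ on the gene's strand, cut to the bases outside every annotated exon, with matches in capitals (ATTGG is CCAAT read from the opposite strand). Hmgcs1 is shown because it alone holds the sterol response element core, TCACCCCAC, 137 bases upstream of the start. The other 3 were chosen after their values were seen: Mvk has 5 CCAAT matches and was higher in DC goblet cells but lower in Si8 goblet cells, Insig1 has both a CCAAT box and an E-box, and Elovl6 has no match and was lower in goblet cells of both regions. Genes not shown went other ways. Dhcr7 has CCAAT and CACGTG matches and was lower in goblet cells of both regions. Ebp has CCAAT matches and was higher in both, and Acat2 has no match and was higher in DC goblet cells. A link between motifs and these changes was not tested. The 4 windows lie at chr13:119690101-119690350 (plus strand), chr5:114444061-114444268 (plus), chr5:28071162-28071362 (plus) and chr3:129532136-129532256 (plus), in the order Hmgcs1, Mvk, Insig1 and Elovl6.
Hmgcs1: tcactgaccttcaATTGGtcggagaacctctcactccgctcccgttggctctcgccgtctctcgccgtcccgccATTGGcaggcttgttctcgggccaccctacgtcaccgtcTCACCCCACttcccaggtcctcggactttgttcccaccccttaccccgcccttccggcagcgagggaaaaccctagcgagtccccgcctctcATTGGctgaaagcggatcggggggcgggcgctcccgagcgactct
Mvk: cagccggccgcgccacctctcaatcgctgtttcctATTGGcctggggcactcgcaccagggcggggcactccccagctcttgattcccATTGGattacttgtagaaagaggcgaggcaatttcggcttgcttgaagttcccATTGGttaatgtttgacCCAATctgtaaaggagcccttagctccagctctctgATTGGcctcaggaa
Insig1: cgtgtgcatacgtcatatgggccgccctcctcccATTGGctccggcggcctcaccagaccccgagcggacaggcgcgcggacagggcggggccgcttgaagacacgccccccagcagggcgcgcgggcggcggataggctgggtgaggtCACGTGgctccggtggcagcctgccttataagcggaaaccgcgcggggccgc
Elovl6: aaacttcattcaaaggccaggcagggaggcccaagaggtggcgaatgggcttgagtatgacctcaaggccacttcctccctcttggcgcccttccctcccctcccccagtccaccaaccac

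The central comparison asked how goblet cells differ from the epithelium around them in each region. In DC, most of the sterol enzymes were higher in goblet cells, and in Si8 most of them were lower. Of the 28 genes, 16 were higher and 2 lower in DC goblet cells at an adjusted p under 0.05 in edgeR's quasi-likelihood test, where 27.8% of all 16001 genes were called higher and 27.9% lower. In Si8 goblet cells 1 was higher and 18 were lower, with 33.1% of all genes called higher and 31.8% lower. The median log2 fold change of the 28 was 0.27 in DC and -0.42 in Si8, against 0.03 over all genes in each region. 9 genes were higher in DC and lower in Si8: Mvk, Mvd, Idi1, Fdps, Fdft1, Cyp51, Tm7sf2, Nsdhl and Stard4. How many of all 16001 genes were called in this opposed way was not counted, so the 9 have no share to be set against. Most of the changes were modest, since 1 gene (Fdps) in DC and 3 genes (Insig2, Hsd17b7 and Sqle) in Si8 passed with a log2 fold change of at least 1 in size. Of all 16001 genes, 1465 were higher and 2155 lower in DC goblet cells at that size, and 1427 and 2321 in Si8 goblet cells.

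Whether the goblet effect itself differed between the regions was tested as the goblet over other change in DC minus that in Si8. 19 of the 28 genes had a higher effect in DC and 1, Dhcr7, a lower one, where 15.6% and 16.5% of all genes were called. The median difference was 0.89 on the log2 scale against -0.03 over all genes, and 11 of the 19 differed by at least 1. Of all 16001 genes, 1094 had a higher effect in DC at that size and 1322 a lower one. The Dhcr7 difference of -0.34 ± 0.13 (SE; adjusted p = 0.047) was lost with DESeq2 (adjusted p = 0.0653), with RLE size factors (0.0649) and without any 1 of 11 of the 16 libraries, that is all but DC other library 3, DC goblet library 1, Si8 other libraries 3 and 4 and Si8 goblet library 4.

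**Figure D1:**
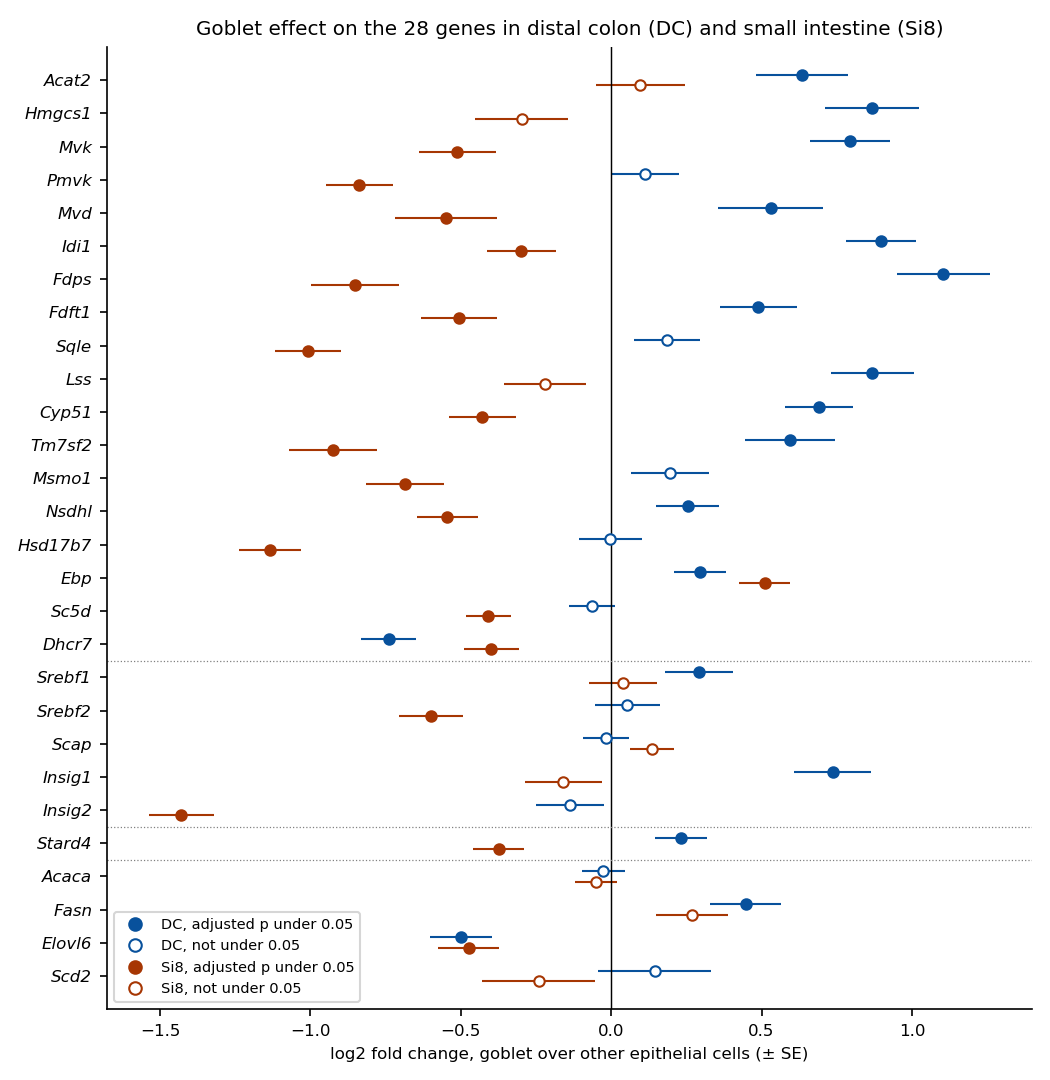
Log2 fold change of goblet over other epithelial cells (x axis, ± SE) for the 28 genes (y axis, in the order of their roles, with dotted lines between roles), in DC (blue) and Si8 (red-brown); filled points had an adjusted p under 0.05. Most sterol enzymes lie to the right of 0 in DC and to the left in Si8, Fdps from 1.10 to -0.85, while Ebp is right of 0 and Dhcr7 and Elovl6 are left of 0 in both.

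The summed level of the 18 sterol enzymes followed the same order. It was 1928, 2072, 1889 and 1832 CPM in DC other cells and 3379, 2376, 2699 and 2765 in DC goblet cells. In Si8 it was 2667, 1966, 2587 and 2301 CPM in other cells and 1647, 1581, 2115 and 1568 in goblet cells. DC goblet cells therefore lay above DC other cells in every library, and the Si8 groups overlapped through other library 2 and goblet library 3. DC goblet library 1 was the highest of all 16. The means ± SD over 4 libraries were 1930 ± 103 and 2804 ± 419 CPM in DC and 2380 ± 318 and 1728 ± 260 in Si8, so the 2 goblet groups were the extremes. Hmgcs1 contributed 562 ± 34.9 CPM to this sum in DC other cells and 1025 ± 225 CPM in DC goblet cells.

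**Figure D2:**
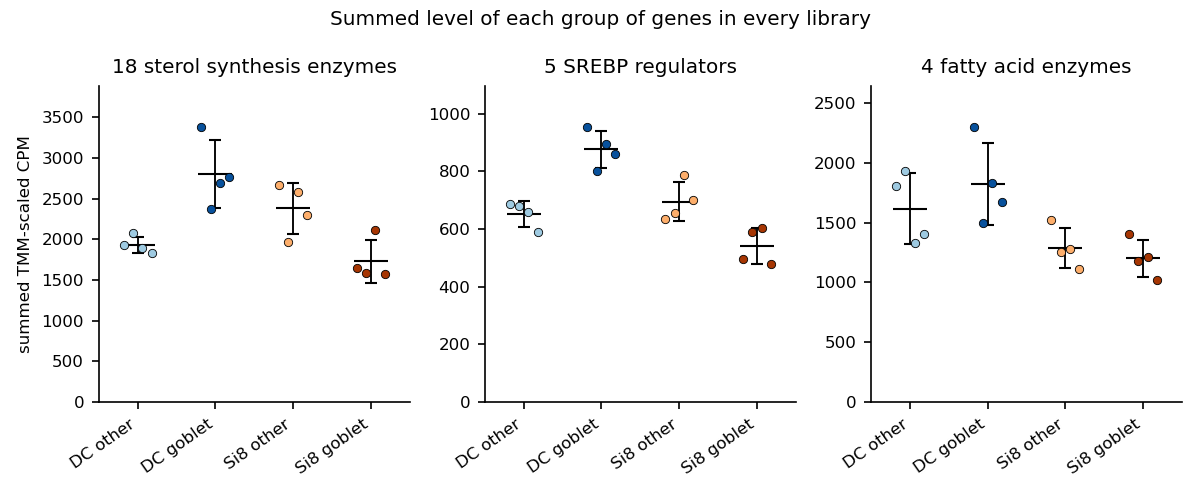
Summed TMM-scaled CPM (y axis, from 0) of 18 sterol enzymes, 5 regulators and 4 fatty acid enzymes in each of the 16 libraries (points) of the 4 groups (x axis), with the mean (dash) and SD (bars) of 4 libraries. The sterol enzymes are highest in DC goblet cells (2804 ± 419) and lowest in Si8 goblet cells (1728 ± 260).

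Of the early enzymes that make mevalonate and turn it into isoprenoid units, Hmgcs1, the cytosolic HMG-CoA synthase, stood out by its level. It read 557, 610, 553 and 527 CPM in DC other cells and 1315, 767, 1026 and 991 in DC goblet cells. In Si8 it read 843, 579, 738 and 706 CPM in other cells and 490, 520, 772 and 550 in goblet cells. The DC groups did not overlap and the Si8 groups did. Hmgcs1 was 1.82-fold higher in DC goblet cells (log2 fold change 0.87 ± 0.16, adjusted p = 0.00011), was not called in Si8 (-0.30 ± 0.16, adjusted p = 0.1) and had a difference of effect of 1.16 ± 0.22 (adjusted p = 0.00042). In Si8 its adjusted p passed the threshold without goblet library 3 (0.00884), its highest goblet value there, without other library 2 (0.0422) and with no filter on low counts (0.0244).

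Mvk, mevalonate kinase, showed the opposed pattern in full. Its levels were 21.0, 23.8, 18.8 and 20.2 CPM in DC other cells, 44.7, 30.5, 32.4 and 37.5 in DC goblet cells, 41.0, 37.5, 49.5 and 38.9 in Si8 other cells and 30.8, 28.6, 34.5 and 23.3 in Si8 goblet cells. No library of one sort overlapped the other sort within a region. The change was 0.79 ± 0.13 in DC (adjusted p = 4.6e-05) and -0.51 ± 0.13 in Si8 (adjusted p = 0.0017). Pmvk, which adds the next phosphate, was not called in DC (0.11 ± 0.11) and was lower in Si8 goblet cells (-0.84 ± 0.11), where its mean was 42.6 ± 4.73 CPM against 76.1 ± 13.3 in other cells. Mvd, the decarboxylase that follows, was 0.53 ± 0.17 higher in DC goblet cells (adjusted p = 0.016) and 0.55 ± 0.17 on the log2 scale lower in Si8. Its sorts overlapped in both regions. The lowest DC goblet library (48.7 CPM) lay below the highest DC other library (49.9), and the highest Si8 goblet library (53.3) above the lowest Si8 other library (49.7). The DC call of Mvd was lost without DC other library 3 (adjusted p = 0.0758) or DC goblet library 1 (0.0681).

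Idi1, the isomerase that supplies the second isoprenoid unit, read 40.0, 49.8, 44.9 and 39.7 CPM in DC other cells and 97.6, 70.9, 73.1 and 82.7 in DC goblet cells. In the Si8 sorts it read 51.4, 38.1, 51.4 and 43.6 CPM in other cells and 38.1, 36.4, 41.8 and 33.4 in goblet cells. DC goblet cells lay above all 12 libraries of the other groups. The DC change was 0.90 ± 0.12 (adjusted p = 2e-06). The Si8 change of -0.30 ± 0.11 (adjusted p = 0.028) was lost with upper-quartile scaling (adjusted p = 0.0514) and without Si8 other library 1 (0.0929) or 3 (0.0902) or Si8 goblet library 2 (0.0584) or 4 (0.0939). Acat2, the cytosolic thiolase that joins the first 2 acetyl-CoA units, was higher in DC goblet cells (48.6 ± 9.47 against 31.3 ± 6.57 CPM, 0.63 ± 0.15, adjusted p = 0.0017) and not called in Si8 (0.10 ± 0.15). Its difference of effect of 0.54 ± 0.21 missed the threshold (adjusted p = 0.063) and passed it with no filter on low counts (0.00481) and without DC other library 2 (0.0204), DC goblet library 3 (0.0438), Si8 other library 4 (0.046) or Si8 goblet library 1 (0.0325).

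Fdps, farnesyl diphosphate synthase, had the largest difference of effect of the 28 genes. It read 7.94, 9.57, 8.03 and 8.52 CPM in DC other cells, 21.8, 15.6, 16.6 and 19.1 in DC goblet cells, 14.4, 13.0, 20.01 and 12.7 in Si8 other cells and 7.08, 9.86, 8.91 and 7.45 in Si8 goblet cells. The lowest DC goblet library stood well above the highest DC other library, and the Si8 sorts were separated in the opposite direction. Fdps was 2.15-fold higher in DC goblet cells (1.10 ± 0.15, adjusted p = 5.1e-06) and 1.80-fold lower in Si8 goblet cells (-0.85 ± 0.15, adjusted p = 4.9e-05), and the difference was 1.96 ± 0.21 (adjusted p = 7.4e-07). Its level is uncertain, since 76.8% of its transcript matches 5 other genes at 95% identity or more, and how reads were shared among such copies is not given in the sources used here.

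Fdft1, the squalene synthase that commits farnesyl units to sterols, was higher in DC goblet cells (198 ± 26.2 against 141 ± 7.28 CPM, 0.49 ± 0.13, adjusted p = 0.0028) and lower in Si8 goblet cells (105 ± 22.1 against 149 ± 19.4 CPM, -0.51 ± 0.13, adjusted p = 0.0017). The sorts of Fdft1 overlapped in Si8 and not in DC. Sqle, the squalene epoxidase and a control point of the pathway, differed from it. It read 152, 160, 146 and 145 CPM in DC other cells and 204, 155, 163 and 165 in DC goblet cells, which overlapped. In Si8 it read 328, 259, 345 and 295 CPM in other cells and 150, 136, 185 and 139 in goblet cells, with a wide gap. Si8 other cells thus stood above the 3 other groups, and the goblet change was 0.19 ± 0.11 in DC (adjusted p = 0.16) and -1.01 ± 0.11 in Si8 (adjusted p = 1.5e-07).

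Lss, the cyclase that forms lanosterol, was higher in DC goblet cells, at 205, 140, 144 and 158 CPM against 94.4, 85.3, 91.8 and 83.0 in DC other cells (0.87 ± 0.14, adjusted p = 3.2e-05). The Si8 sorts overlapped, at 102 ± 15.5 CPM in other cells and 87.7 ± 15.98 in goblet cells (-0.22 ± 0.14, adjusted p = 0.17).

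The later enzymes turn lanosterol into cholesterol. Cyp51, the lanosterol demethylase, read 192, 215, 208 and 204 CPM in DC other cells and 366, 327, 292 and 336 in DC goblet cells, without overlap, and was 0.69 ± 0.11 higher (adjusted p = 3.3e-05). In Si8 its sorts overlapped, with 248 ± 39.8 CPM in other cells and 184 ± 25.8 in goblet cells, and it was called lower (-0.43 ± 0.11, adjusted p = 0.0026). Tm7sf2, a sterol reductase, read 20.3, 25.0, 19.2 and 16.7 CPM in DC other cells, 37.9, 26.7, 28.7 and 29.3 in DC goblet cells, 31.7, 25.7, 39.7 and 38.7 in Si8 other cells and 18.5, 15.0, 19.8 and 18.3 in Si8 goblet cells. Neither region's sorts overlapped. Tm7sf2 was 0.60 ± 0.15 higher in DC (adjusted p = 0.0022) and 1.90-fold lower in Si8 (-0.92 ± 0.14, adjusted p = 1.8e-05), and its difference of effect of 1.52 ± 0.21 came second to that of Fdps.

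Msmo1, the sterol methyl oxidase, was not called in DC (0.20 ± 0.13) and was lower in Si8 goblet cells (141 ± 22.3 against 226 ± 42.4 CPM, -0.69 ± 0.13, adjusted p = 0.00013). Nsdhl and Hsd17b7 act with it in removing the methyl groups of lanosterol. Nsdhl was lower in Si8 goblet cells (-0.54 ± 0.10, adjusted p = 0.00011), and its DC call was slight (0.25 ± 0.10, adjusted p = 0.044) and was lost with DESeq2 (0.131), RLE size factors (0.0899), no filter on low counts (0.0634), the stricter filter (0.0704), without mitochondrially encoded genes (0.0803), without the 10 most abundant genes (0.0551) and without DC other library 1 (0.0719), 3 (0.186) or 4 (0.101) or DC goblet library 1 (0.121) or 4 (0.108). Hsd17b7 read 40.1, 38.5, 44.0 and 40.6 CPM in DC other cells and 47.6, 36.0, 40.4 and 38.6 in DC goblet cells, against 78.2, 61.3, 77.0 and 64.6 in Si8 other cells and 31.2, 32.8, 36.4 and 27.6 in Si8 goblet cells. It was level across the DC sorts, with means of 40.8 ± 2.30 and 40.7 ± 4.97 CPM, and 2.20-fold lower in Si8 goblet cells (-1.13 ± 0.10, adjusted p = 1.2e-08). Sc5d, the sterol desaturase, was not called in DC (-0.06 ± 0.08) and was 0.41 ± 0.08 on the log2 scale lower in Si8 goblet cells (adjusted p = 0.0001). Its difference of effect of 0.35 ± 0.11 (adjusted p = 0.018) was lost without DC other library 3 (0.0954) and with no filter on low counts (0.102).

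Ebp and Dhcr7, both acting near the end of the pathway, departed from the rest. Ebp, the sterol isomerase, read 45.6, 53.5, 47.4 and 47.4 CPM in DC other cells, 66.3, 55.1, 58.6 and 57.9 in DC goblet cells, 70.4, 59.0, 56.6 and 57.5 in Si8 other cells and 87.7, 78.4, 93.1 and 87.5 in Si8 goblet cells. It was higher in goblet cells of both regions, by 0.30 ± 0.09 in DC (adjusted p = 0.0067) and 0.51 ± 0.08 in Si8 (adjusted p = 3.1e-05), and was the only one of the 28 called higher in Si8 goblet cells. Dhcr7, the reductase that makes cholesterol from its dehydro precursor, read 84.0, 81.6, 69.4 and 75.4 CPM in DC other cells and 48.9, 45.4, 46.8 and 44.8 in DC goblet cells. Its Si8 levels were 39.2, 37.8, 47.7 and 46.8 CPM in other cells and 33.4, 34.3, 34.1 and 28.3 in goblet cells. It was lower in goblet cells of both regions without overlap (-0.74 ± 0.09, adjusted p = 9.4e-07, and -0.40 ± 0.09, adjusted p = 0.00075), and DC other cells held its highest level.

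**Figure D3:**
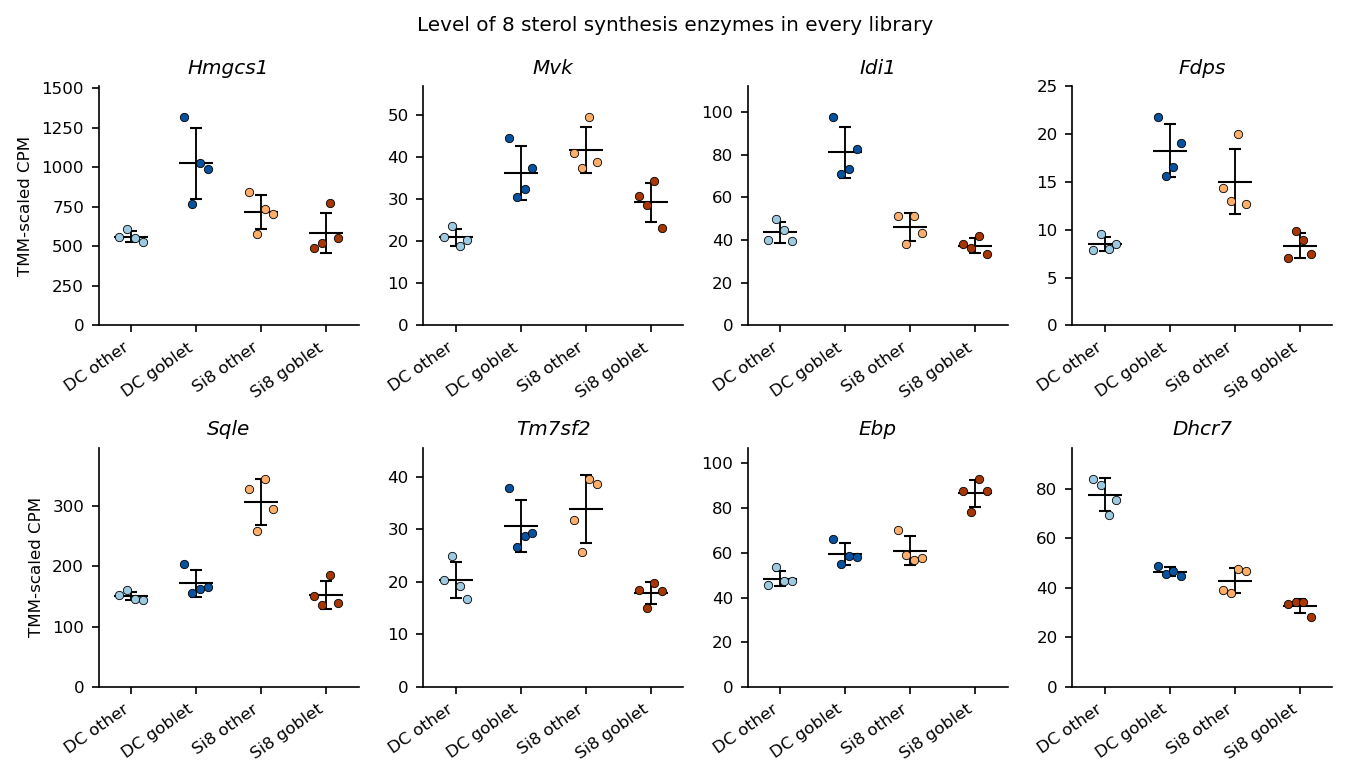
TMM-scaled CPM (y axis, from 0) of 8 sterol enzymes in each library (points) of the 4 groups (x axis), with the mean (dash) and SD (bars) of 4 libraries. Mvk, Fdps and Tm7sf2 are high in DC goblet and Si8 other cells, Sqle is high only in Si8 other cells (307 ± 38.1), and Ebp is higher and Dhcr7 lower in goblet cells of both regions.

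Among the regulators the 2 Insig genes went separate ways. Insig1, itself an SREBP target whose protein retains Scap, read 296, 320, 299 and 247 CPM in DC other cells, 547, 424, 488 and 477 in DC goblet cells, 164, 153, 181 and 138 in Si8 other cells and 117, 165, 171 and 117 in Si8 goblet cells. Both DC groups lay above all Si8 libraries, and goblet cells above other cells in DC alone. It was 1.67-fold higher in DC goblet cells (0.74 ± 0.13, adjusted p = 6.1e-05) and not called in Si8 (-0.16 ± 0.13, adjusted p = 0.28), with a difference of effect of 0.89 ± 0.18 (adjusted p = 0.00066). Insig2, which retains Scap as well but is not driven by SREBP in the same way, read 22.96, 22.5, 22.3 and 23.98 CPM in DC other cells and 19.4, 21.5, 22.8 and 19.8 in DC goblet cells. In Si8 it read 77.3, 63.0, 89.8 and 94.3 CPM in other cells and 32.3, 26.3, 32.9 and 29.0 in goblet cells. Si8 other cells stood far above the 3 other groups. Insig2 was 2.69-fold lower in Si8 goblet cells (-1.43 ± 0.11, adjusted p = 8.6e-10), the largest change of the 28 genes in either goblet comparison, and was not called in DC (-0.14 ± 0.11, adjusted p = 0.32).

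Srebf2, for the factor that drives the sterol enzymes, read 144, 116, 150 and 134 CPM in DC other cells, 135, 141, 146 and 142 in DC goblet cells, 246, 247, 329 and 299 in Si8 other cells and 164, 194, 216 and 168 in Si8 goblet cells. The DC sorts could not be separated (0.05 ± 0.11, adjusted p = 0.7), in a comparison where 12 of the 18 sterol enzymes were higher in goblet cells, beside 27.8% of all genes. A link between the Srebf2 level and the enzymes was not tested. In Si8 the sorts did not overlap and Srebf2 was 0.60 ± 0.11 on the log2 scale lower in goblet cells (adjusted p = 7.4e-05). Srebf1, for the factor tied to fatty acid synthesis, was called higher in DC goblet cells (156 ± 13.8 against 127 ± 19.8 CPM, 0.29 ± 0.11, adjusted p = 0.036), with overlap, and not in Si8 (0.04 ± 0.11). That DC call was lost with DESeq2 (adjusted p = 0.0899), RLE size factors (0.065), the stricter filter (0.06) and without mitochondrially encoded genes (0.0613), and without DC other library 3 (0.19) or 4 (0.123) or DC goblet library 1 (0.111) or 3 (0.0705). Scap, the escort, kept between 67.1 ± 6.30 and 75.3 ± 2.08 CPM in the 4 group means and was called in none of the 5 comparisons, the nearest being DC against Si8 in other cells (adjusted p = 0.06). That one passed with upper-quartile scaling (0.0125), the stricter filter (0.0195) and without mitochondrially encoded genes (0.0415), and without Si8 other library 2 (0.0253) or 3 (0.0315) or Si8 goblet library 2 (0.0333) or 4 (0.0429).

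Stard4, which carries cholesterol through the cytosol, read 292, 268, 279 and 254 CPM in DC other cells and 305, 296, 339 and 343 in DC goblet cells. The Si8 libraries held 269, 316, 287 and 300 CPM in other cells and 195, 250, 238 and 221 in goblet cells. The sorts did not overlap in either region, and goblet cells were the higher sort in DC and the lower in Si8. The change was 0.23 ± 0.09 in DC (adjusted p = 0.027) and -0.37 ± 0.09 in Si8 (adjusted p = 0.00083). The DC call was lost with DESeq2 (0.064), RLE size factors (0.066), the stricter filter (0.0614) and without mitochondrially encoded genes (0.0663), and without DC other library 2 (0.0558), 3 (0.091) or 4 (0.0874) or DC goblet library 3 (0.075) or 4 (0.0857).

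**Figure D4:**
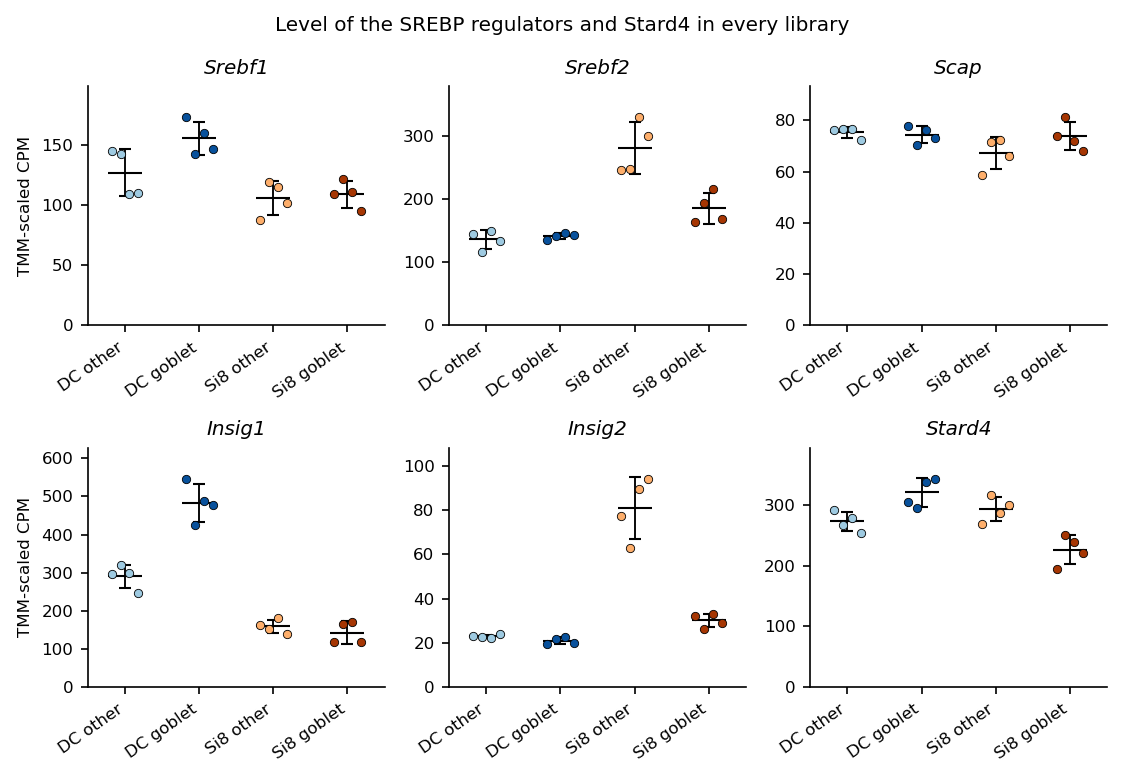
TMM-scaled CPM (y axis, from 0) of the 5 SREBP regulators and Stard4 in each library (points) of the 4 groups (x axis), with the mean (dash) and SD (bars) of 4 libraries. Insig1 is highest in DC goblet cells (484 ± 50.2) and Insig2 and Srebf2 in Si8 other cells (81.1 ± 14.0 and 281 ± 40.7), while Scap stays between 67.1 and 75.3 in the means.

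The 4 fatty acid enzymes did not share the opposed pattern, and none of them had a difference of goblet effect past the threshold (median 0.10). Fasn, fatty acid synthase, read 339, 375, 320 and 303 CPM in DC other cells and 529, 379, 438 and 476 in DC goblet cells. In Si8 it read 337, 350, 345 and 262 CPM in other cells and 409, 445, 386 and 319 in goblet cells. The DC sorts were apart by a narrow margin and the Si8 sorts overlapped. Fasn was 0.45 ± 0.12 higher in DC goblet cells (adjusted p = 0.0035) and at 0.27 ± 0.12 in Si8, where its adjusted p of 0.055 passed the threshold under upper-quartile scaling (0.0341), with no filter on low counts (0.00408), without mitochondrially encoded genes (0.0461) and without DC other library 3 (0.039), DC goblet library 1 (0.0449) or 2 (0.0422), Si8 other library 2 (0.0383) or Si8 goblet library 4 (0.0166).

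Elovl6, which lengthens the products of Fasn, read 96.8, 85.0, 100 and 104 CPM in DC other cells and 75.7, 69.3, 69.2 and 58.8 in DC goblet cells, against 161, 141, 133 and 127 in Si8 other cells and 118, 93.9, 106 and 87.2 in Si8 goblet cells. It was lower in goblet cells of both regions without overlap and by nearly the same amount, -0.50 ± 0.10 in DC (adjusted p = 0.00041) and -0.47 ± 0.10 in Si8 (adjusted p = 0.00047). Acaca, acetyl-CoA carboxylase, kept group means of 86.0 ± 4.83 to 99.1 ± 8.24 CPM and was called in neither region. Scd2, a stearoyl-CoA desaturase, read 1279, 1386, 825 and 906 CPM in DC other cells and 1602, 967, 1233 and 1057 in DC goblet cells, with more spread than any other of the 4, and the sorts overlapped. Si8 levels were 910, 660, 700 and 634 CPM in other cells and 771, 539, 624 and 523 in goblet cells, again with overlap, and it was called in neither region (0.14 ± 0.19 and -0.24 ± 0.19).

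**Figure D5:**
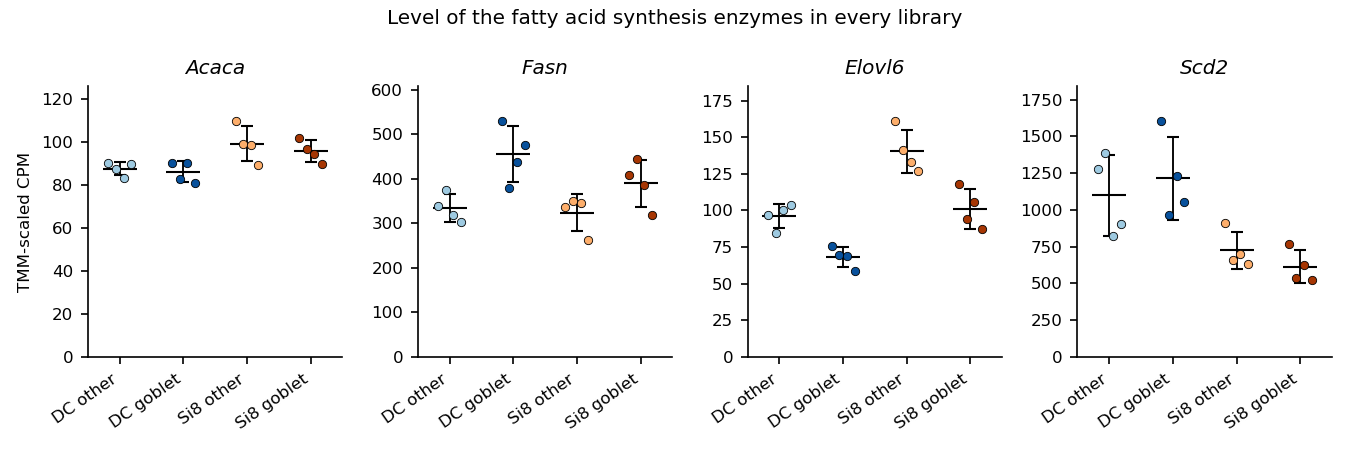
TMM-scaled CPM (y axis, from 0) of 4 fatty acid synthesis enzymes in each library (points) of the 4 groups (x axis), with the mean (dash) and SD (bars) of 4 libraries. Elovl6 is lower in goblet cells of both regions, Fasn higher in DC goblet cells (456 ± 63.1 against 334 ± 31.0), and Scd2 lower in Si8.

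The regions were then compared within each sort, which uses the same 4 groups as the goblet comparisons. Among goblet cells 18 of the 28 genes were higher in DC and 4 lower, where 30.6% of all genes were called higher and 31.5% lower, and the median log2 fold change was 0.45 against -0.02 over all genes. Among other cells 4 were higher in DC and 14 lower, where 33.3% and 33.6% of all genes were called, and the median was -0.24 against 0.00. With upper-quartile scaling the latter counts were 6 higher and 12 lower. Goblet cells of the colon and other cells of the small intestine thus held the higher levels of many sterol enzymes, with 14 of 18 higher in DC among goblet cells and 10 of 18 lower in DC among other cells.

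The largest regional change among goblet cells was in Insig1, which was 3.40-fold higher in DC (1.76 ± 0.13, adjusted p = 6.2e-10). Msmo1 (1.16 ± 0.13), Fdps (2.20-fold) and Idi1 (1.12 ± 0.12) also passed a log2 fold change of 1. Srebf2 (-0.39 ± 0.11), Insig2 (-0.53 ± 0.11), Ebp (-0.54 ± 0.08) and Elovl6 (-0.57 ± 0.10) were lower in DC goblet cells. The calls of Mvk (0.31 ± 0.13, adjusted p = 0.042) and Acat2 (0.40 ± 0.15, adjusted p = 0.028) were lost without DC goblet library 1 (adjusted p = 0.208 and 0.144) or 4 (0.0928 and 0.0538), or without Si8 goblet library 2 (0.0599 and 0.0567) or 4 (0.123 and 0.074). That of Mvk was also lost with DESeq2 (0.0893), RLE size factors (0.059), no filter on low counts (0.0545), only the groups compared (0.0532), without mitochondrially encoded genes (0.0666) and without DC other library 1 (0.0538), 3 (0.0767) or 4 (0.0529).

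Among other cells, Insig2 was 3.53-fold lower in DC (-1.82 ± 0.11, adjusted p = 2.2e-11), Srebf2 2.06-fold lower (-1.04 ± 0.11, adjusted p = 5.6e-08) and Sqle 2.03-fold lower (-1.02 ± 0.11, adjusted p = 9.3e-08). Mvk followed at -0.99 ± 0.13, Fdps at -0.82 ± 0.15, Hsd17b7 at -0.78 ± 0.10 and Tm7sf2 at -0.74 ± 0.15. Insig1 (0.87 ± 0.13), Dhcr7 (0.86 ± 0.09), Scd2 (0.60 ± 0.19; adjusted p = 0.0646 with no filter on low counts) and Srebf1 (0.26 ± 0.11, adjusted p = 0.049) were higher in DC. Insig1 and Insig2 therefore differed between the regions in opposite directions in both sorts. The calls of Srebf1, Mvd, Cyp51 and Acaca in this comparison had adjusted p of 0.049, 0.022, 0.037 and 0.034. Each was lost without Si8 other library 1 (0.153, 0.0637, 0.156 and 0.171) and without other libraries that differed from gene to gene, and those of Srebf1, Cyp51 and Acaca also under other settings.

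Levels of different genes can be compared only per length, here as CPM per kb of the union of annotated exons. In DC goblet cells Hmgcs1 (223 ± 49.0), Scd2 (222 ± 51.4) and Insig1 (156 ± 16.2) were the most abundant of the 28 on this scale. The first 2 of these did not differ beyond their spread. Fdps was the least abundant there (4.34 ± 0.66), with the limit on its count given above, followed by Acaca (5.04 ± 0.28) and Insig2 (6.01 ± 0.46). Insig1 exceeded Insig2 in every group, at 156 ± 16.2 against 6.01 ± 0.46 CPM per kb in DC goblet cells and 51.4 ± 5.78 against 23.3 ± 4.04 in Si8 other cells. Srebf2 (39.1 ± 5.67) exceeded Srebf1 (18.9 ± 2.53) in Si8 other cells, while in DC goblet cells Srebf1 (27.7 ± 2.45) exceeded Srebf2 (19.6 ± 0.64), all in CPM per kb.

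Besides Fdps, the transcripts of Acat2 (65.6% of their length), Acaca (64.3%), Fdft1 (33.7%), Idi1 (22.6%), Elovl6 (13.5%), Scd2 (11.4%, with Scd1) and Insig1 (7.01%) match other genes at 95% identity or more, so counting could have split their reads. Hmgcs1, Idi1, Fdft1, Lss, Cyp51, Srebf1, Scap and Elovl6 share exonic bases with a gene on the opposite strand, and Fdps, Tm7sf2, Srebf1 and Scd2 with one on their own strand. The libraries were stranded, but the strand setting of the counting is not given in the sources used here.

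53 other genes of the pathway, from sterol and isoprenoid steps through SREBP control to sterol uptake and export, were taken from a fixed list, and 51 were tested. That list too was chosen with earlier results of these data known. In DC goblet cells 22 of the 51 were higher and 16 lower, beside 27.8% and 27.9% of all genes. In Si8 goblet cells 18 were higher and 17 lower, beside 33.1% and 31.8% of all genes, which is close to the share over all genes. Their difference of effect was higher in DC for 19 and lower for 8, beside 15.6% and 16.5% of all genes, with a median of 0.12 against 0.89 for the 28 genes. Between regions, 16 were higher and 17 lower in DC among goblet cells, and 16 higher and 23 lower among other cells. All genes gave 30.6% and 31.5% in the first and 33.3% and 33.6% in the second, so the goblet counts and the higher count of other cells lie near the share over all genes. Of the 14 genes of sterol uptake, esterification, trafficking and export, 3 were higher and 10 lower in DC goblet cells, and 4 were higher and 7 lower in Si8 goblet cells.

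The extremes of this list were larger than those of the 28 genes. In DC goblet cells the highest fold change was in Tmem97, a sterol-regulated membrane protein (1.97 ± 0.11), and the lowest in Lipa, the lysosomal acid lipase (-2.97 ± 0.19). The sterol exporter Abcg1 was lower there as well (-1.33 ± 0.29), though it was not next after Lipa in the whole list. In Si8 goblet cells Abcg1 (3.58 ± 0.31) and the sterol esterifying enzyme Soat1 (1.87 ± 0.08) were higher and the sterol importer Npc1l1 (-2.54 ± 0.19) and exporter Abca1 (-2.43 ± 0.15) were lower. The goblet effect on Abcg1 thus ran in opposite directions, with a difference of -4.91 ± 0.42 (adjusted p = 1.7e-07), from 16.9 ± 6.71 to 6.77 ± 1.92 CPM in DC and from 1.80 ± 0.32 to 21.5 ± 6.65 in Si8. Soat1 had a difference of -1.74 ± 0.11, Soat2, the esterifying enzyme of enterocytes, one of 1.52 ± 0.34 and the desaturase Scd1 one of 2.14 ± 0.25.

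Between regions, Npc1l1 stood at 161 ± 35.2 CPM in Si8 goblet cells and 935 ± 289 in Si8 other cells and was close to 0 in DC (0.05 ± 0.04 and 0.41 ± 0.04 CPM). Soat2 was lower in DC by log2 fold changes of -5.57 ± 0.19 in goblet cells and -7.09 ± 0.18 in other cells. The lipoprotein receptor Scarb1 was higher in DC by 4.68 ± 0.11 and 3.88 ± 0.11 in the same order, with 22.5 ± 1.00 against 0.87 ± 0.05 CPM in goblet cells. Scd1 was higher in DC goblet cells by 3.70 ± 0.19, and Abcg1 higher in DC other cells by 3.24 ± 0.31.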

How the data were processed

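Read counts per gene of 16 bulk RNA libraries were deposited by the authors as whole-number counts in a table for each region, with 46882 entries each. The submitters' processing notes name STAR 2.4.0f, HTSeq 0.6.1p1, FastQC 0.11.2 and DESeq2 1.14 and build mm10; for parameters and annotation nothing is given in the sources used here. A further deposited table of counts divided by size factors was not used, and 0 columns of per-sample values were left out of the count tables. Symbols listed more than once were left out.

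The test was run in R 4.3.3 with edgeR 4.0.16 (low genes removed by filterByExpr at its minimum count of 10, TMM scaling, 1 fit over 4 groups, robust quasi-likelihood F test, Benjamini-Hochberg adjustment over 16001 genes), after a check on simulated data. Genes were called at an adjusted p under 0.05. SE is that of the log2 fold change, worked out as its size divided by the square root of the F statistic of the test. Replicate libraries differed by more than counting noise in every group. Levels are CPM of TMM-scaled totals, as mean ± SD over 4 libraries. Totals of 11915081 to 41075589 counts gave the 28 genes at least 124 counts in a library.

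Copies were sought with blastn 2.17.0 (95% identity over 100 bases) among GENCODE M21 transcripts of GRCm38, the build also named mm10. Promoter windows came from RefSeq. The 28 genes and the other lists were chosen with earlier results of these data known. All 28 are described, and of the other pathway genes the 2 largest and 2 smallest changes per contrast with at least 10 CPM in the higher group are named. 1 gene that this rule selects is not reported here. Alternatives were other scalings, filters and tools and leaving out each library.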

Additional observations from a re-analysis of the deposited data

Results flagged for a closer look

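20 of the 28 genes had a goblet effect that differed between the regions by the test of the difference itself (effect in DC minus effect in Si8, log2 scale, adjusted p under 0.05 in edgeR), where 15.6% of all genes were called higher and 16.5% lower. The differences were 1.96 for Fdps, 1.52 for Tm7sf2, 1.31 for Mvk, 1.29 for Insig2, 1.20 for Idi1, 1.19 for Sqle, 1.16 for Hmgcs1, 1.13 for Hsd17b7, 1.12 for Cyp51, 1.09 for Lss and 1.08 for Mvd. They were 0.997 for Fdft1, 0.95 for Pmvk, 0.89 for Insig1, 0.88 for Msmo1, 0.80 for Nsdhl, 0.65 for Srebf2, 0.61 for Stard4, 0.35 for Sc5d and -0.34 for Dhcr7.

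In 4 of the 112 sets of 4 libraries (28 genes in 4 groups), 1 library stood apart from its group by Dixon's criterion, which chance alone meets in about 5% of sets. These were the highest Ebp level in Si8 other library 1 (70.4 CPM), the lowest Dhcr7 level in Si8 goblet library 4 (28.3 CPM), the lowest Scap level in DC other library 4 (72.2 CPM) and the lowest Fasn level in Si8 other library 4 (262 CPM).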

How the results depend on the processing

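The 140 results of single genes (28 genes in 5 comparisons) were recomputed under up to 25 settings. Of 3472 alternative values, 3172 kept their direction and their side of the threshold, 180 were no longer called (75 of them by asking for a log2 fold change of at least 1), 76 became called, and 44 changed sign, none of which was called. With a log2 fold change of at least 1 the counts of higher and lower genes were 1 and 0 for goblet cells in DC, 0 and 3 in Si8, 4 and 0 for the regions in goblet cells, 0 and 3 in other cells, and 11 and 0 for the difference of effects. Over all 16001 genes they were 1465 and 2155, 1427 and 2321, 2020 and 2101, 2592 and 2532, and 1094 and 1322, in the same order. The count of genes higher in Si8 goblet cells was 2 with upper-quartile factors, without the low-count filter and without mitochondrially encoded genes, and 1 to 2 when single libraries were left out. The count with a lower difference of effect was 0 with RLE factors, with DESeq2 and without the 10 most abundant genes, and 0 to 1 when single libraries were left out. The 16 genes higher in DC goblet cells were 13 with DESeq2 and 12 to 16 when single libraries were left out, and the 18 lower in Si8 were 17 to 19. No scaling moved the median of all genes by over 0.1.

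Sign changes under other settings were for Srebf1 in Si8 goblet cells (-0.0132 with RLE, -0.0123 with DESeq2), for Scap between regions in goblet cells (-0.0118 with RLE, -0.0174 with DESeq2, -0.0507 without the filter, -0.0235 without mitochondrially encoded genes), for Acaca, Hsd17b7 and Scap in DC goblet cells with upper-quartile factors (0.00943, 0.0325 and 0.0173) and for the difference of effects on Acaca (-0.00722 without the filter, -0.00382 with the stricter one, -0.0216 without mitochondrially encoded genes). Leaving out single libraries gave log2 ranges across 0 in DC goblet cells for Srebf2 (-0.0129 to 0.0849), Scd2 (-0.0144 to 0.278), Hsd17b7 (-0.0841 to 0.0559), Scap (-0.0466 to 0.0140) and Acaca (-0.0864 to 0.00452), in Si8 goblet cells for Acaca (-0.0984 to 0.00514) and Srebf1 (-0.0357 to 0.109), between regions for Fasn in other cells (-0.0364 to 0.101) and Scap in goblet cells (-0.0315 to 0.0821), and for the difference of effects on Acaca (-0.0635 to 0.0809) and Elovl6 (-0.0924 to 0.0572). The cause of these changes was not tested. With the whole 300-base window, the share of the 23 genes with each motif stayed at 82.6%, 21.7% and 4.35%. No paired analysis was possible because the labels give no replicate numbers shared between groups.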
